A study of Mus musculus with 8 samples.

Results

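Semaphorins, ephrins, netrins and slits are guidance ligands first known from growing nerve fibres, and plexins, neuropilins, Eph receptors, Unc5 proteins and Robo proteins are their receptors. The signals of their probes were followed here on arrays of whole mouse hearts, with or without a tied coronary artery. The genes were taken by symbol, as every gene with 1 symbol in the platform annotation that matched a fixed list of names. Names began with Sema3 to Sema7, Plxn, Efna, Efnb, Slit1 to Slit3 or Unc5, or with Epha, Ephb or Ntn and a digit. Nrp1, Nrp2 and Robo1 to Robo3 were taken by full name. This gave 56 genes on 89 probes, of 13661 genes so named on the array. Of these, 29 were ligands and 25 were receptors. The other 2, Unc50 and Unc5cl, matched by name alone: Unc50 is a Golgi protein and Unc5cl a death-domain protein of inflammatory signalling, and neither was counted with the receptors.

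The series compared 4 hearts of C57Bl/6 mice with a permanent tie around the left coronary artery's descending branch, labelled infarcted, with 4 hearts of sham-operated C57Bl/6 mice, in which the suture was passed but not tied. All mice were 8 to 10 weeks old, both groups had been through anaesthesia and an opened chest, and each heart had its own spotted array of 70-mer oligonucleotides. On every array the heart's RNA was labelled red and hybridised with green-labelled RNA pooled from several tissues of adult mice, 30 µg of each, without a dye swap. How long after surgery the hearts were taken is not stated in the labels. Whole hearts were used, so infarct, border and distant muscle were mixed, and fewer cells of a type and less RNA per cell cannot be told apart.

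The deposited numbers were the signal of 1 channel on a log2 scale, relative to the median spot of the same printed block, rather than a ratio of heart to reference. A level of 0 is thus the median of those spots of a block that had a value, and spots without a value do not enter it. The brightest 1% of spots with a value began at 5.65 to 6.31 on sham arrays and at 5.05 to 5.24 on infarcted arrays. Values were present for 19704 to 24819 of 33600 spots per array. Sham control replicate 4 had the fewest, and it correlated less with the other sham arrays (0.860 to 0.886) than they did with each other (0.901 to 0.944). Which channel the values hold was not settled. Heart muscle markers were bright, with median levels between 3.97 and 6.28 on sham arrays and between 5.80 and 6.2 on infarcted arrays. These medians cover different markers from array to array, since 7 of the 14 heart muscle markers had fewer than 3 sham values and could not be tested. Atp2a2, the calcium pump of heart muscle, had 0 sham values and a mean of 6.65 on 4 infarcted arrays. Markers of liver, testis and stomach, tissues other than heart, were bright too. Their median levels on sham arrays ran from 3.01 to 3.93, from 2.49 to 4.14 and from 1.67 to 3.39. Liver and stomach were named in the labels' description of the reference pool, as were ovary or testicles. All 24 tested markers of these 3 tissues had negative differences between infarcted and sham arrays, with medians of -1.02, -1.17 and -0.78. Marker lists of other tissues were less uniform. Brain had 5 of 6 tested markers negative (median -0.18), lung 4 of 5 (-0.51) and spleen 1 of 4 (0.08). The 1 tested kidney marker, Aqp2, had a positive difference of 0.49. At most 1 of the 24 turned positive under any of the 5 other scalings or weights tried. Among them Prm2, a protamine that packs DNA in sperm, fell by 1.69 ± 0.26 on the log2 scale (SE, n = 4 each, limma adjusted p = 0.0314). Every difference reported below is one of this signal, and how much of it came from the heart and how much from the reference was not tested.

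**Figure D1:**
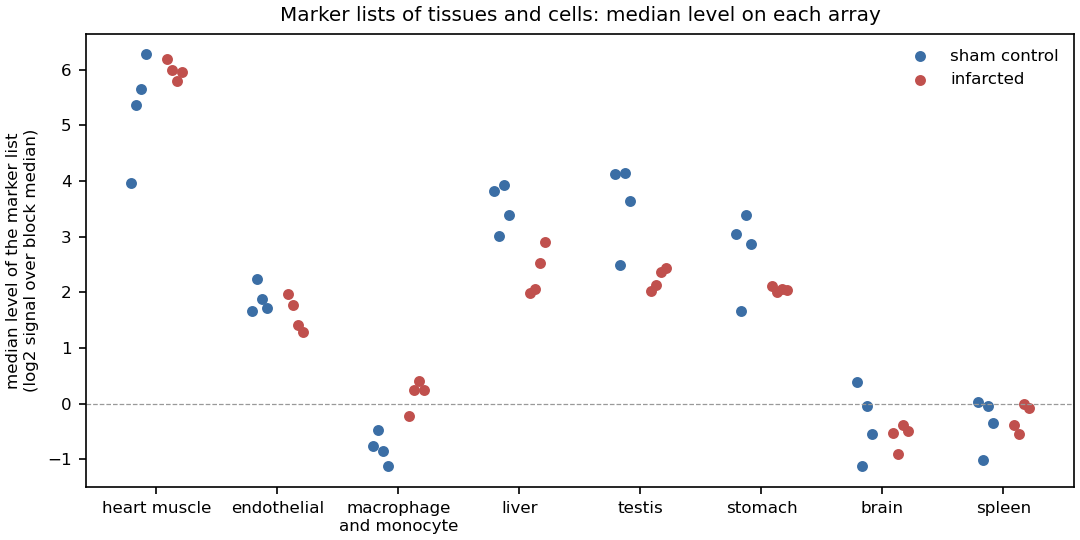
Median level of 8 marker lists on each of the 8 arrays, in log2 signal over the block median, with sham control arrays in blue and infarcted arrays in red. Heart muscle, liver, testis and stomach markers lie above 0 on all arrays, and the liver medians of 3.01 to 3.93 on sham arrays lie above those of 1.98 to 2.90 on infarcted arrays.

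As background, semaphorins are secreted or membrane-bound proteins that signal through plexins, and most secreted ones of class 3 first bind a neuropilin. Ephrins are tethered to the cell surface and bind Eph receptor tyrosine kinases on a neighbouring cell, so that both cells can receive a signal. Netrins bind Dcc, neogenin and Unc5 receptors, and slits bind Robo receptors. In the cardiovascular system these proteins are known for shaping vessels, the outflow tract and the sympathetic nerves of the heart.

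No gene of these families changed beyond the threshold of an adjusted p under 0.05. With the minimum of 3 values in each group, 39 of the 56 genes could be tested, and 0 of 39 passed (limma with Benjamini-Hochberg adjustment over 18044 features). Among all features 0.549% passed, 0.0554% with a higher and 0.493% with a lower signal on infarcted arrays. At an unadjusted p under 0.05 there were 9 of the 39, or 23.1%, against 12.3% of all features. Of the 39, 6 had such a p with a lower signal on infarcted arrays, against 8.82% of all features. With a higher signal there were 3 of the 39, against 3.46%. Of the 2216 features with such a p, 1592 had a lower signal. The 2 groups of arrays did not overlap for 6 of the 39, or 15.4%, against 8.89% of all features. In 5 of the 39 the infarcted arrays lay below, against 6.27% of all features, and in 1 of the 39 above, against 2.62%. Of the 1605 features without overlap, 1132 had the infarcted arrays below. Of the 39 log2 differences, infarcted minus sham, 26 were negative and 13 positive, with a median of -0.19. Among all features 57.5% were negative and the median was -0.08. The median of all features depended on the scaling, at 0.002 after quantile normalization and 0.008 after loess. The median of the guidance genes was then -0.11 and -0.18. In the main fit the differences of the 39 genes ran from -1.0 to 0.78, with standard errors of 0.21 to 0.67. These genes share arrays and vary together, and the shares were not tested against those of all features. All features also included probes without a gene name, kept single. Plxnb2 and Sema6d, among the 9, and Sema3f, among the 6, had gene means moved by dim probes that lacked values. Their probes complete on all arrays gave -0.26, 0.40 and 0.01.

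Receptors had the more negative median. Of 18 tested receptors 13 had a negative and 5 a positive difference, with a median of -0.29. Of 20 tested ligands 12 were negative and 8 positive, with a median of -0.09. Measured from the sham mean, the median receptor stood at -0.00, -0.11, -0.53 and -0.47 on infarcted replicates 1 to 4, and the median ligand at -0.04, -0.02, -0.23 and 0.19. The medians of the roles stood farthest apart on replicates 3 and 4. Without infarcted replicate 4 the receptor median was -0.15 and the ligand median -0.11. Without infarcted replicate 1 they were -0.40 and 0.07. When the block scaling was taken out of the values, the order turned, with -0.08 for receptors and -0.11 for ligands. Genes are not replicates, and the difference between the roles has no test.

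**Figure D2:**
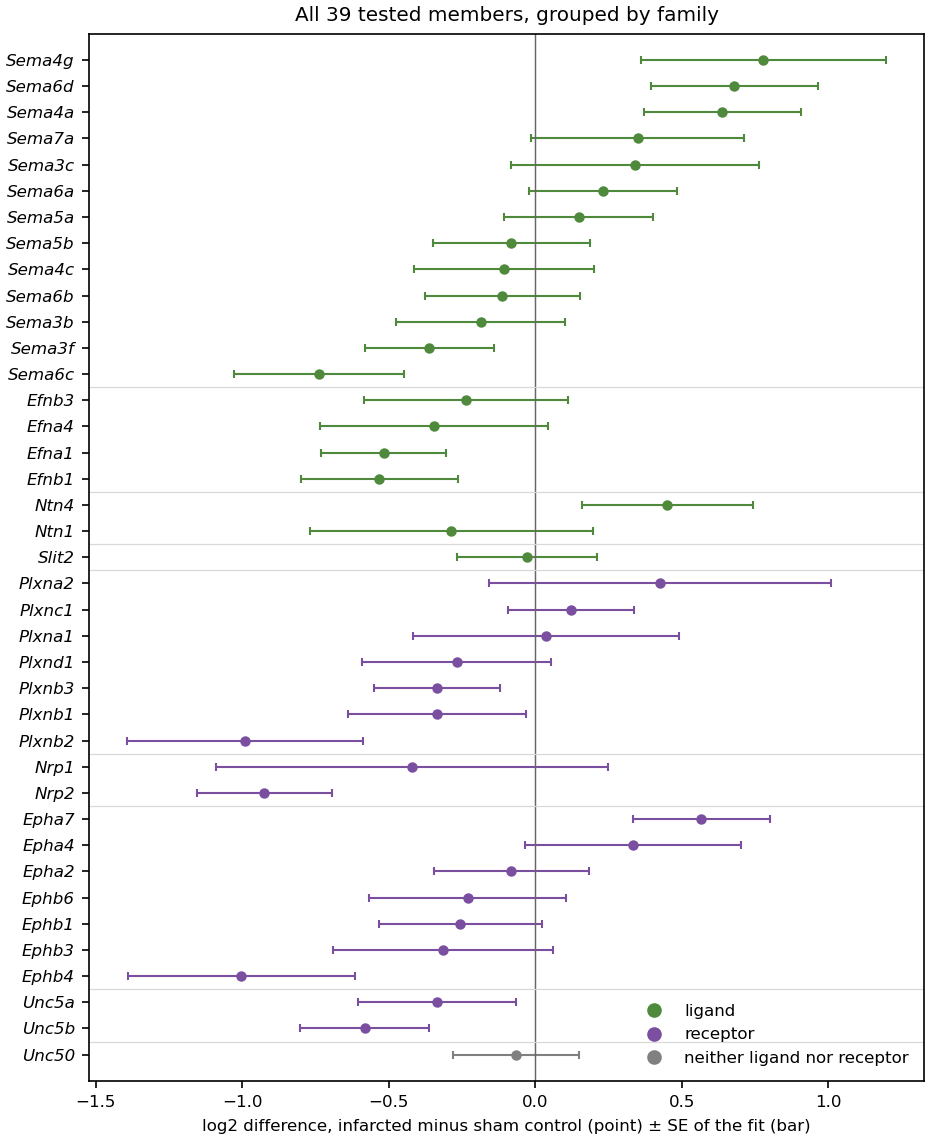
Log2 difference, infarcted minus sham control, of all 39 tested genes, with the standard error of the fit as a bar, ligands in green, receptors in purple and Unc50 in grey. Points lie from -1.0 (Ephb4) to 0.78 (Sema4g), and all tested ephrins, neuropilins, B-class plexins, B-class Eph receptors and Unc5 receptors lie left of 0. The 2 tested A-class plexins and 2 of 3 tested A-class Eph receptors lie right of 0. The Nrp1 probe complete on 8 arrays gave 0.06, and Ephb1 turned positive with the block scaling taken out.

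Among the receptors of semaphorins, Nrp2 had the smallest p of the 39 tested genes. It encodes neuropilin-2, a co-receptor of class 3 semaphorins and of vascular endothelial growth factor C that is known from veins and lymphatic vessels. Its level was 3.45, 2.77, 3.08 and 3.00 on sham control replicates 1 to 4 and 2.45, 2.0, 1.96 and 2.20 on infarcted replicates 1 to 4. All infarcted arrays lay below all sham arrays. The log2 difference was -0.92 ± 0.23 (SE, n = 4 each), or 52.7% of the sham signal, and the limma adjusted p was 0.123. Nrp2 rested on 1 probe, and the difference was -0.75 after quantile normalization (adjusted p = 0.345). Of 4 markers of lymphatic endothelium 3 had positive differences, with a median of 0.09 (-0.10 with the block scaling taken out). The negative one was Flt4, with -0.40 ± 0.23 (adjusted p = 0.528). Lyve1, Pdpn and Flt4 had a value on every array. Their summed signal was 2.52 to 4.22 times the block median on sham and 2.88 to 4.03 on infarcted arrays. The part of lymphatic cells in the value of Nrp2 was not tested.

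The gene mean of Nrp1, the neuropilin of arterial endothelium and of Sema3a signalling, was set by which of its 4 probes had a value. The gene mean varied from -0.55 to 2.62 between sham arrays, and its difference was -0.42 ± 0.67 (adjusted p = 0.856). Probe 9345, the only one with a value on all 8 arrays, read 1.75, 2.27, 1.83 and 1.73 on the sham and 1.95, 2.04, 1.74 and 2.10 on the infarcted arrays, a difference of 0.06. Probe 26145 read 1.90 to 2.97 on 3 sham arrays and 1.63 to 2.55 on 4 infarcted arrays. The dim probe 14945 read -3.0 to -2.65 where it had a value. In both bright probes the infarcted range overlapped the sham range.

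Plexins are the signalling receptors of semaphorins and carry a domain that switches off small GTPases of the Ras family. Of 7 tested plexins 4 had a negative and 3 a positive difference. All 3 B-class plexins, receptors of class 4 semaphorins, were negative, also under the other scalings. Plxnb2 had -0.99 ± 0.40 (adjusted p = 0.356), but its probes disagreed in size. Probe 4746, present on all arrays, read 1.93, 2.17, 1.81 and 1.57 on sham and 2.04, 1.94, 0.97 and 1.5 on infarcted arrays, and its difference of -0.26 lay within the spread of the arrays. The dim probe 32718 read -2.41, -0.23 and -0.44 on sham replicates 2 to 4 and -1.88, -1.78, -2.21 and -2.14 on the infarcted arrays. It had no value on sham replicate 1, where the gene mean was therefore highest, and without that array the gene's difference was -0.61. Plxnb1 and Plxnb3 had -0.34 ± 0.30 and -0.34 ± 0.22 (adjusted p = 0.719 and 0.593), with overlapping groups.

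Plxnd1, the receptor of Sema3e in endothelium, was bright on every array, with 2.46 to 3.23 on sham and 1.93 to 3.05 on infarcted arrays, and a difference of -0.27 ± 0.32 (adjusted p = 0.804). Plxnc1, the receptor of Sema7a, had 0.12 ± 0.22 (adjusted p = 0.872), from levels between -2.23 and -1.59, and 0.01 without sham control replicate 2. In the A class, which pairs with neuropilins, Plxna2 had 0.43 ± 0.58 (adjusted p = 0.832). This value rested on sham replicate 1, where Plxna2 read -1.83 against 0.46 to 1.07 on the other sham arrays, and without that array the difference was -0.22. For Plxna1 the difference was 0.04 ± 0.45 (adjusted p = 0.984), with 0.51 for probe 298, -0.24 for probe 11498 and -0.15 for probe 29726, which had a value on 7 arrays. The gene's sign was not settled: it stood at -0.32 with array weights and at -0.08 with the block scaling taken out, and ran from -0.27 to 0.40 with 1 array left out.

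**Figure D3:**
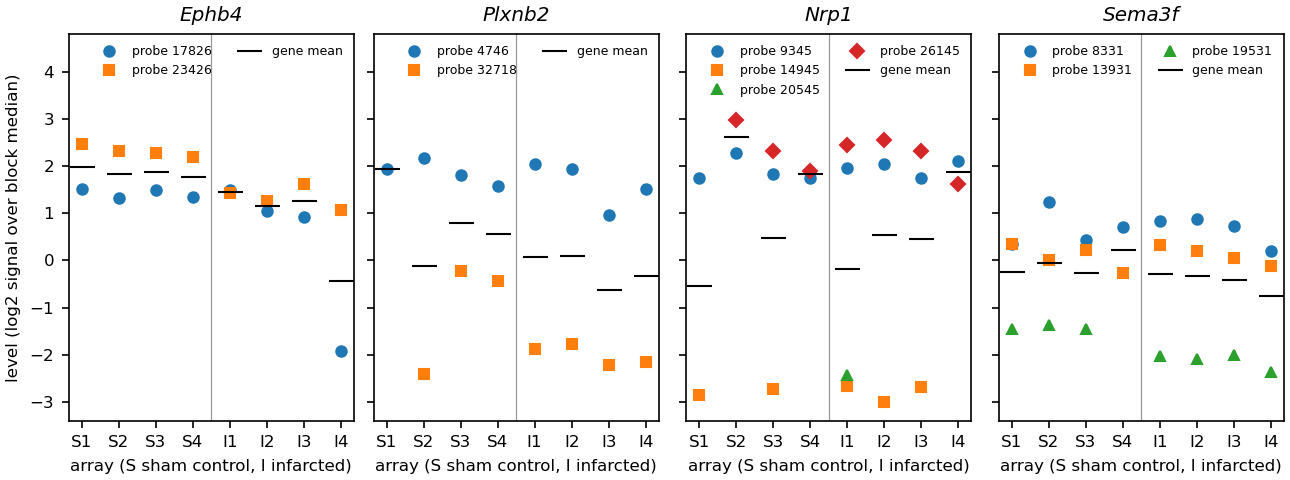
Level of each probe with a value (coloured symbols) and of the gene mean (black bars) for Ephb4, Plxnb2, Nrp1 and Sema3f on sham control arrays S1 to S4 and infarcted arrays I1 to I4, in log2 signal over the block median. The gene mean moves where a dim probe lacks a value, as for Plxnb2 on S1, and probe 17826 of Ephb4 stands at -1.93 on I4 and at 0.92 to 1.5 elsewhere.

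Eph receptors are the largest family of receptor tyrosine kinases. All 4 tested receptors of the B class, which bind transmembrane ephrins, had negative differences, but Ephb1 turned positive with the block scaling taken out. Ephb4, the receptor that marks veins, had the largest size among all 39 tested genes, with -1.0 ± 0.39 (SE, n = 4 each, adjusted p = 0.329), or 49.9% of the sham signal. Probe 23426 read 2.46, 2.32, 2.27 and 2.19 on sham and 1.42, 1.25, 1.61 and 1.06 on infarcted arrays, without overlap and with a difference of -0.97. Probe 17826 read 1.5, 1.33, 1.48 and 1.34 on sham and 1.49, 1.05, 0.92 and -1.93 on infarcted arrays, so that the groups overlapped. The value of -1.93 corresponds to a signal of 93 on infarcted replicate 4, where the same probe gave 1166 to 1836 on the other arrays. Without that array the gene's difference was -0.57 ± 0.22 (adjusted p = 0.367). With probe 23426 alone for the gene it was -0.97 ± 0.21 (adjusted p = 0.0749). The other 3 B-class receptors were Ephb1 (-0.26), Ephb3 (-0.31) and the kinase-inactive Ephb6 (-0.23, 3 sham values), each with overlapping groups and an adjusted p of 0.778 or more.

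In the A class, which binds ephrins anchored by a lipid tail, 3 of 6 receptors could be tested. Epha7 read -1.5, -1.67, -2.12 and -2.23 on sham and -1.18, -1.36, -1.47 and -1.23 on infarcted arrays. It was the only one of the 39 genes with all infarcted arrays above all sham arrays, with a gap between -1.5 and -1.47. Its difference was 0.57 ± 0.24 (n = 4 each, adjusted p = 0.362), and its signals were dim, below the block median in both groups. Epha4 had 0.33 ± 0.37 (adjusted p = 0.78) with the 2 highest values, 1.42 and 1.17, on infarcted replicates 1 and 2. Epha2, a receptor of Efna1 in endothelium and epithelium, had -0.08 ± 0.26 (3 sham and 4 infarcted values, adjusted p = 0.934). It stood at 0.04 with the block scaling taken out and at 0.05 without infarcted replicate 3.

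Both tested Unc5 receptors of netrin were negative. Unc5b, the netrin receptor of endothelial tip cells, read 0.32, 0.51, 0.65 and 0.07 on sham and -0.24, 0.07, -0.35 and -0.25 on infarcted arrays. The groups met at 0.07, on sham replicate 4 and infarcted replicate 2. Its difference was -0.58 ± 0.22 (n = 4 each, adjusted p = 0.315), or 66.9% of the sham signal. Unc5a had -0.34 ± 0.27 (adjusted p = 0.683). Unc50, which shares only the name, had -0.07 ± 0.22 (adjusted p = 0.936).

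**Figure D4:**
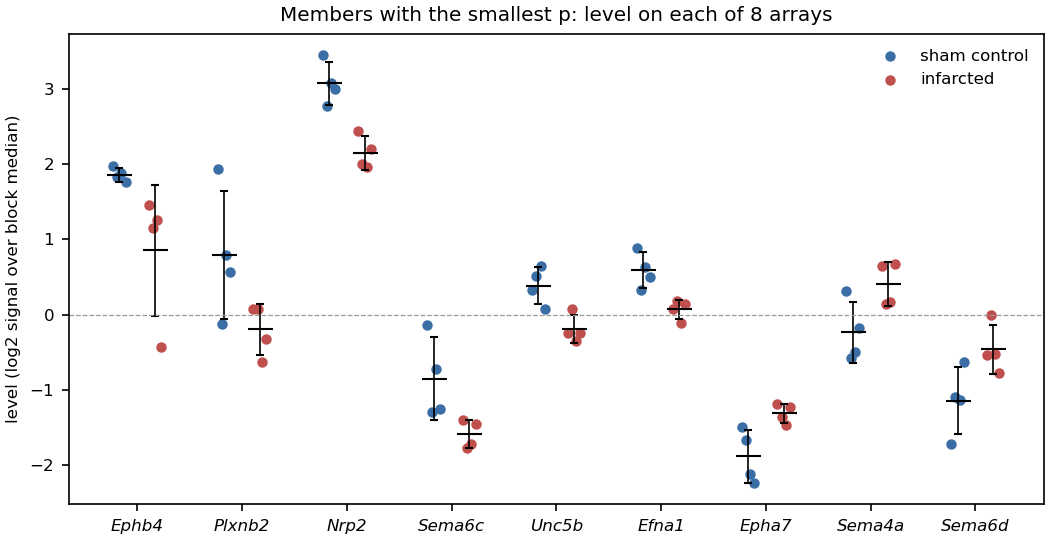
Level on each of the 8 arrays for the 9 genes with an unadjusted p under 0.05, in log2 signal over the block median, with sham control arrays in blue, infarcted arrays in red, and the mean and SD of 4 arrays in black. Nrp2, Ephb4, Sema6c and Efna1 have all infarcted arrays below the sham arrays, Epha7 has them above, and the groups of the other 4 genes overlap. No adjusted p passed the threshold.

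Semaphorins were divided in sign, with 7 positive and 6 negative among 13 tested and a median of 0.15. Sema6c, a transmembrane semaphorin, had the lowest p among the ligands. It read -0.13, -1.30, -0.72 and -1.25 on sham and -1.40, -1.77, -1.71 and -1.46 on infarcted arrays, so that all infarcted arrays lay below the sham arrays. The log2 difference was -0.74 ± 0.29 (n = 4 each, adjusted p = 0.339). Sema6d, another member of class 6 and known from heart development, differed the other way. It had 0.68 ± 0.28 (adjusted p = 0.366), from -1.72, -1.09, -1.13 and -0.63 on sham to -0.54, -0.00, -0.52 and -0.78 on infarcted arrays. The lowest of these values, on sham replicate 1, included a second and dimmer probe that had a value on that array alone. The probe complete on all arrays gave 0.40 ± 0.25 (adjusted p = 0.553). Sema6a and Sema6b had 0.23 ± 0.25 and -0.11 ± 0.26, within the spread of their arrays. For Sema6a the value was 0.05 without sham control replicate 4 and 0.12 without infarcted replicate 2.

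Class 4 semaphorins are membrane-bound and include regulators of immune cells. Sema4a, which is known from T cell priming, read 0.31, -0.57, -0.50 and -0.18 on sham and 0.65, 0.14, 0.16 and 0.67 on infarcted arrays, a difference of 0.64 ± 0.27 (n = 4 each, adjusted p = 0.367). Sham replicate 1 lay within the infarcted range and the other 3 sham arrays below it. Sema4g had the largest positive difference of the 39 genes, 0.78 ± 0.42 (3 infarcted values, adjusted p = 0.505), but its sham values were spread from -2.49 to -0.57 and overlapped the infarcted range of -0.99 to -0.70. Sema4c had -0.11 ± 0.31. Beside these class 4 semaphorins, markers of macrophages and monocytes were higher on infarcted arrays in 9 of 10 tested genes. Their median difference was 0.62, with 0 genes past the threshold. At an unadjusted p under 0.05 there were 5 of the 10, against 12.3% of all features. The summed signal of 9 of these markers was 26.2 to 44.5 times the block median on sham and 34.4 to 56.6 on infarcted arrays, and each of the 10 had a value on some array. Their part in the semaphorin values was not tested.

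The secreted class 3 semaphorins gave no separation of the groups that all probes shared. Sema3c, a ligand needed for the cardiac outflow tract, had 0.34 ± 0.42 (adjusted p = 0.811), with sham values of -2.55 to -0.76. Single arrays set this value: it was 0.01 without sham control replicate 2, 0.16 without replicate 1, and 0.59 and 0.61 without replicates 3 and 4. It was 0.52 without infarcted replicate 1, and 0.06 with the block scaling taken out. Sema3f, a ligand of Nrp2, had -0.36 ± 0.22 (adjusted p = 0.563), and its gene means did not overlap, at -0.27 to 0.21 on sham and -0.76 to -0.29 on infarcted arrays. Only probe 19531 separated the groups, at -1.46 to -1.37 on 3 sham arrays and -2.36 to -2.0 on 4 infarcted arrays. Its other probes, 8331 and 13931, gave differences of -0.02 and 0.04, and averaged over these complete probes Sema3f stood at 0.01. Sema3b had -0.19 ± 0.29. Of the remaining semaphorins Sema7a, a lipid-anchored ligand with roles in inflammation, had 0.35 ± 0.36 (adjusted p = 0.765). It ran from 0.13 without sham control replicate 4 to 0.69 without replicate 1, and was 0.53 without infarcted replicate 4. Sema5a and Sema5b had 0.15 ± 0.26 and -0.08 ± 0.27.

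All 4 tested ephrins had negative differences, with a median of -0.43, and stayed negative under the 5 other scalings or weights tried. Efna1, a ligand induced by inflammatory cytokines in endothelium, read 0.89, 0.32, 0.64 and 0.50 on sham and 0.08, 0.18, -0.11 and 0.14 on infarcted arrays. All infarcted arrays lay below the sham arrays, and the difference was -0.52 ± 0.21 (n = 4 each, adjusted p = 0.358), or 69.9% of the sham signal. Efnb1, a transmembrane ephrin, had -0.53 ± 0.27 (adjusted p = 0.469). Its 2 probes had a value on every array and gave -0.65 and -0.42, with overlapping groups. Efna4 and Efnb3 had -0.34 ± 0.39 and -0.24 ± 0.35, with overlapping groups. Both signs leaned on sham replicate 3, where these genes read 1.36 and 1.96. On the other sham arrays Efna4 read -0.57 to 0.69 and Efnb3 0.67 to 1.16. On the infarcted arrays they read -0.33 to 0.50 and 0.39 to 1.44.

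Efnb2, the ephrin that marks arteries and binds Ephb4, had too few values for a test. It read 0.16, 1.00 and -0.35 on sham replicates 1, 2 and 4, signals of 656, 826 and 466. On the infarcted arrays it had 1 value, -2.74 on replicate 3, a signal of 140. A missing value has no known level, so no fold is given. Sema4d was the reverse case, with -1.88, -2.21 and -1.80 on infarcted replicates 1, 2 and 4 and 1 sham value of -2.24, all near the dim end of the array.

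Among netrins, Ntn4, a netrin of vascular basement membranes, had 0.45 ± 0.29 (adjusted p = 0.593), with -1.41 to -0.42 on sham and -0.84 to 0.08 on infarcted arrays. It was 0.25 without sham control replicate 4, and 0.24 to 0.49 under the settings that kept all arrays. Ntn1 had -0.29 ± 0.48 (3 infarcted values, adjusted p = 0.865), and ran from -0.56 without sham control replicate 2 to -0.12 without replicate 3. This range holds no fit without infarcted replicate 1, 2 or 3, since too few values were then left. Ntn1 read -0.86, -1.63 and -2.78 on these arrays and -2.29 to -0.97 on sham arrays. Its sign was thus not settled. Slit2, a secreted ligand of Robo receptors, had -0.03 ± 0.24 (adjusted p = 0.978), and the probes complete on 8 arrays, 9677 and 32049, gave 0.21 and -0.09. The 3 probes of Robo1 had no value on any array, so this pair was seen from the ligand's side only.

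Known ligand and receptor pairs were set side by side by their differences. Both partners of 6 of the 13 pairs fixed by name were among the tested members. Efna1 with Epha2 and Ntn1 with Unc5b were negative on both sides, at -0.52 and -0.08 and at -0.29 and -0.58. Epha2, however, turned positive with the block scaling taken out and without infarcted replicate 3. Ntn1 could not be fitted without infarcted replicate 1, 2 or 3, and its lowest value, -2.78, was on replicate 3. Sema6a with Plxna2, Sema6d with Plxna1 and Sema7a with Plxnc1 were positive on both sides, and the receptors' differences were 0.43, 0.04 and 0.12. The shared sign was not stable in the first of these pairs, where Plxna2 stood at -0.22 without sham control replicate 1, nor in the second, where Plxna1 stood at -0.32 with array weights. Sema3c and Nrp2 differed in sign, at 0.34 and -0.92. Ntn4 had 0.45 and its receptor neogenin (Neo1), which lies outside the families by name, 0.22 ± 0.33 (adjusted p = 0.847).

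Of the 17 genes that could not be tested, Robo1 and Sema4b had no value on any array. The other 15 had a value on 1 to 5 arrays, and 13 of them were never above -1.5. Efnb2 and Unc5cl were the exceptions. Among them was Epha5, known from developing neurons, which had a value from 2 of its 6 probes on 3 arrays in all. Sema3a, which guides cardiac sympathetic nerves, read between -2.53 and -1.96 on 5 arrays. Values of these 17 genes were most numerous on sham control replicate 1, with 12, and on infarcted replicate 1, with 10, and numbered 2 to 4 on the other arrays. These 2 arrays thus held most of the values of the dim genes in their groups. Among the tested genes 23 of 39 had mean levels below the block median in both groups.

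**Figure D5:**
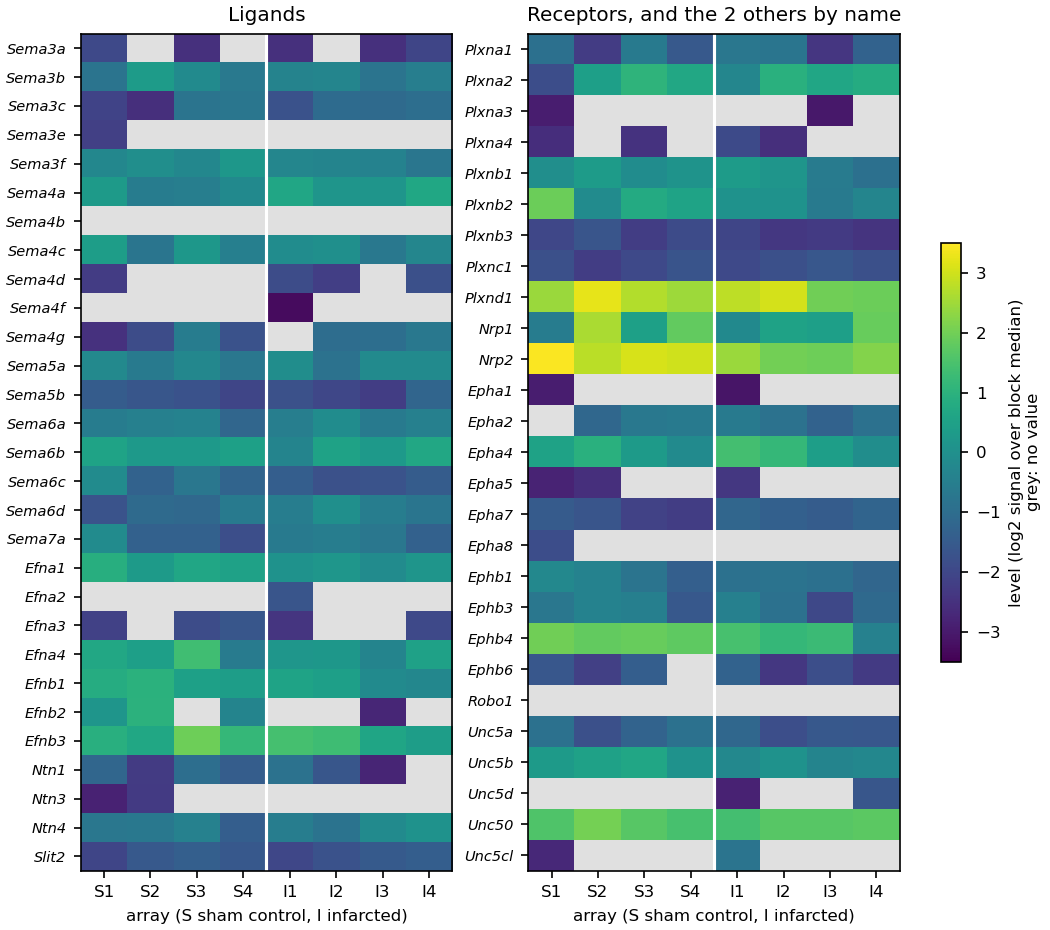
Level of each of the 56 genes on sham control arrays S1 to S4 and infarcted arrays I1 to I4, as a colour scale in log2 signal over the block median, with grey for no value. Ligands are on the left, and receptors with Unc50 and Unc5cl on the right; Robo1 and Sema4b are grey throughout, and S1 and I1 have the fewest grey cells.

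Other genes of the same pathways showed no change past the threshold either. Of 25 further ligands, receptors and co-receptors on the array 20 were tested, with 6 positive and 14 negative, a median of -0.18 and 0 called. The median was -0.07 after quantile normalization and -0.06 after loess. Those with the smallest p were the adhesion molecule Dscaml1 (-1.36 ± 0.49, adjusted p = 0.297), Met (-0.91 ± 0.47, adjusted p = 0.477), which can join plexins in a complex, and Cntn2 (-0.42 ± 0.26, adjusted p = 0.577). The endothelial receptor Robo4 had -0.39 ± 0.31, and Dcc had no value. Of 60 cytoplasmic partners 54 were tested, with 29 positive and 25 negative, a median of 0.06 and 0 called. Their balance turned to 25 positive and 29 negative with the block scaling taken out (median -0.06) and to 24 and 30 with array weights (median -0.04). Rnd2, a GTPase that binds plexins, had 1.65 ± 0.42 (adjusted p = 0.125), with -0.97 to 0.67 on sham and 0.82 to 2.02 on infarcted arrays and no overlap. Enah, an actin regulator downstream of Robo, had 0.88 ± 0.30 (adjusted p = 0.251), and the kinase Abl1 had -0.73 ± 0.26 (adjusted p = 0.277). At an unadjusted p under 0.05 there were 1 of the 20, or 5%, and 8 of the 54, or 14.8%, against 12.3% of all features.

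Nrp2, Ephb4, Unc5b and Efna1, all with negative differences, are known from vessels, but so are other genes described above. Of those, Ntn4 had 0.45, Plxnd1 -0.27 and Epha2 -0.08, and Nrp1 had -0.42 as a gene mean and 0.06 for its complete probe. Markers of endothelium stood beside these genes as follows. Of 10 tested endothelial markers 7 had negative and 3 positive differences, with a median of -0.28 and 0 called. Among all features 57.5% were negative. The endothelial median was -0.16 after quantile normalization and after loess. With the block scaling taken out 6 of the 10 were negative, and with array weights 8. Their summed signal was 35.7 to 45.1 times the block median on sham and 26.5 to 41.1 on infarcted arrays. Eng, an endothelial co-receptor of the TGF-beta family, had -0.68 ± 0.23 (adjusted p = 0.251), whereas Pecam1 had 0.63 and Kdr 0.03. All 11 endothelial markers on the array had a value. Robo4 and Kdr were in both this list and that of further receptors. Markers of smooth muscle and pericytes had a median of -0.26, with 4 of 10 positive. Of nerve and Schwann cell markers 7 of 12 were tested, with 3 positive and a median of -0.11, and Gfap had no value. The part of these cells in the guidance genes' values was not tested.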

How the data were processed

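The deposited values are on a log2 scale; how the authors made them, with which image software, background correction and spot flags, is not given in the sources used here. In each of the 384 combinations of 48 blocks and 8 arrays, 2 to the power of the value times 1 constant gave whole numbers within 0.001, from 42 to 65466, and block medians lay within 0.0003 of 0. Whole numbers of this kind are a single signal and not a ratio of dyes.

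Probes were named through the platform annotation (18179 of 33600 with 1 symbol, 87 with several, 15334 not listed). All 56 symbols were found in RefSeq (GRCm38.p6). A gene was averaged over its probes on each array, and other probes were kept single. Arrays were centred on their medians. Features with at least 3 values in each group were fitted with limma 3.58.1 in R 4.3.3 (lmFit, eBayes) without a block, with Benjamini-Hochberg adjustment over all 18044 of them. The script was tested on simulated data. Differences are infarcted minus sham control. The labels name no batch. They do not say more of the replicates than that each array had 1 heart, so the tests rest on the spread among these hearts and arrays; the number of arrays limits the precision.

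Genes were described by rule: the 10 smallest p, groups without overlap, and 13 ligand and receptor pairs. Genes with values on at least 3 arrays of 1 group and at most 1 of the other were described too. For the other pathway genes, the 3 smallest p of each list were given. Members, lists and rules were chosen with earlier results of these data known. Genes outside these rules are given as further values of the families. Alternatives were other scalings, filters, probe choices, variance models, a replicate block and leaving out each array. Same-numbered arrays had correlations of -0.19 to 0.31 between their deviations, and 1 of 4 was above 0.1. Arrays of different number reached 0.31 as well (infarcted replicate 4 with sham replicate 3), and the main fit used no pairing. Deviations from means of 4 arrays cannot settle whether the numbers pair the arrays.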

Additional observations from a re-analysis of the deposited data

Results flagged for a closer look

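In 2 of the 38 groups of 4 arrays examined for the described genes, 1 array stood apart from the other 3 by more than Dixon's critical share of the group's range. Chance alone sets about 1 in 20 such groups apart. Ephb4 stood at -0.43 on infarcted replicate 4, against 1.15 to 1.45 on the other infarcted arrays, and the low value came from 1 of its 2 probes. Sema3c stood at -1.73 on infarcted replicate 1, against -1.08 to -0.98 on the other 3.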

How the results depend on the processing

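No gene of the guidance families passed in any of 20 alternatives; the smallest adjusted p was 0.0581, for Nrp2 with array weights. Of 378 values of the 20 described and tested genes, 368 kept their direction. Epha2 turned to 0.041 and Plxna1 to -0.081 with the block scaling taken out, Plxna1 to -0.32 with array weights, and Sema3f to 0.0088 with complete probes, where the probe missing on 1 array is dropped. With 1 array left out, Plxna1 ran from -0.27 to 0.40, Plxna2 from -0.22 to 0.75 and Epha2 from -0.18 to 0.047; the cause was not tested. Over all features 99 passed, but 32 with quantile normalization, 48 with scaling by the median absolute deviation, 27 without block scaling, 327 with array weights and 3 to 615 with 1 array left out (615 without sham control replicate 4, 3 without infarcted replicate 3). With the replicate block 1 feature passed and 0 of the guidance genes did. Whether the numbers pair the arrays was not settled. Among features brighter than the array median, the median difference was -0.34 for the guidance genes, -0.29 for ligands, -0.50 for receptors and -0.11 for all features, over fewer genes. Values were missing on some arrays for dim genes and also for bright ones, such as heart muscle markers and 1 probe of Nrp1, which limits what could be tested.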
